A study of Mus musculus with 9 samples.

Results

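Recombinant secreted frizzled-related protein 5 (SFRP5) was added to mouse knee chondrocytes, the cells of cartilage, together with interleukin-1β (IL-1β), and the RNA of these cells was compared with that of cells given IL-1β alone. The comparison used 6 of the 9 RNA sequencing libraries of the series, 3 in each of these groups. The remaining 3 libraries came from control cells without either protein and are given beside the results. All cells were from wild-type mice, were released from cartilage of the knee with collagenase and were grown in culture. The labels give no dose, length of treatment or age, do not name the species of the recombinant protein, and do not say whether the libraries of a group came from separate animals or cultures. All p-values thus reflect variation among these libraries only, and that variation may be technical. No group received SFRP5 without IL-1β, so an action of SFRP5 on resting cells and an action on the IL-1β response cannot be told apart.

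SFRP5 belongs to a family of secreted proteins that carry a cysteine-rich domain like that of the Frizzled receptors and bind Wnt ligands outside the cell. Wnt ligands signal through Frizzled receptors, either by sparing β-catenin from breakdown, which lets it act with TCF/LEF factors in the nucleus, or through branches that use small GTPases and calcium. IL-1β signals through its receptor, the adaptor MyD88 and the kinases of the IRAK family to NF-κB and the MAP kinases, and in cartilage it is known for raising matrix-degrading enzymes, prostaglandin synthesis and chemokines while matrix genes go down.

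Of 15502 genes tested with edgeR's quasi-likelihood test, 2420 were higher with SFRP5 and 2438 lower at an adjusted p under 0.05, which is 15.6% and 15.7% of the genes, and 31.3% in either direction. Most of these changes were small. The counts of gene lists below are to be read against these shares of 15.6% higher and 15.7% lower. Differences of at least 1.5-fold among the called genes numbered 758 higher (4.89%) and 625 lower (4.03%), 8.92% together, differences of at least 2-fold 342 and 296, and differences of at least 4-fold 70 and 60. The median log2 fold change of all tested genes was 0.01, with quartiles at -0.17 and 0.23. A single value in parentheses after a gene symbol is its log2 fold change, IL-1β with SFRP5 over IL-1β alone. By the same test IL-1β alone against control called 38.5% of the genes higher and 40.4% lower. That comparison and the one with SFRP5 share the IL-1β libraries, so their values are set side by side below for single genes and are not compared with each other.

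**Figure D1:**
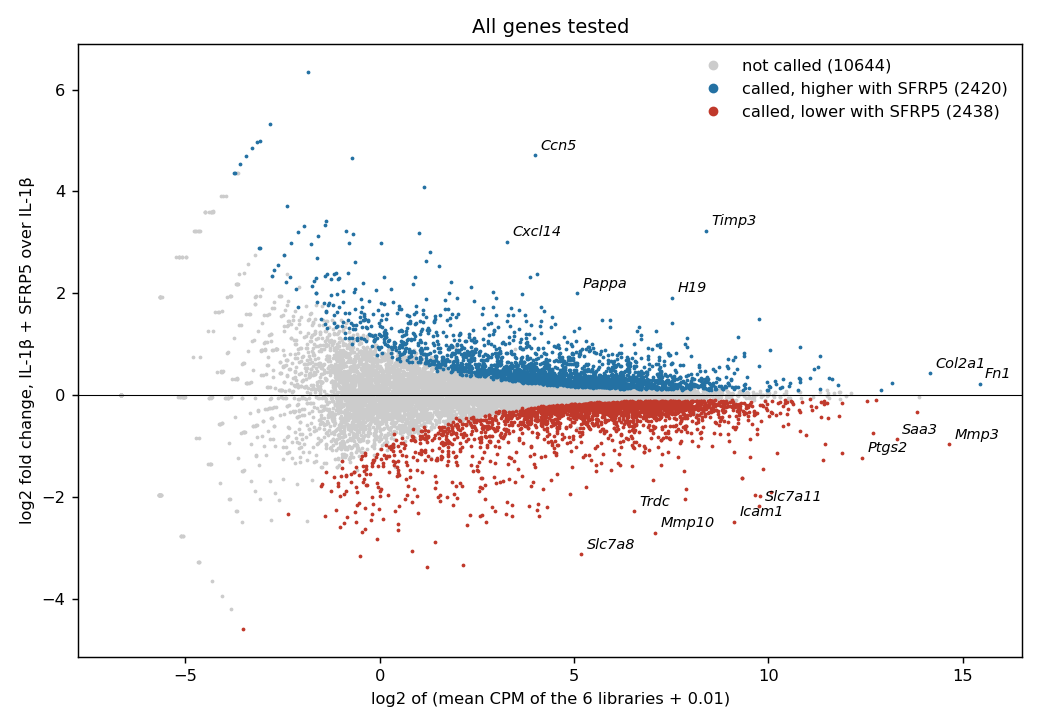
Each point is 1 of the genes tested. The horizontal axis is the log2 of its mean CPM over the 6 libraries plus 0.01 and the vertical axis its log2 fold change, IL-1β with SFRP5 over IL-1β alone; blue and red mark the 2420 genes called higher and the 2438 called lower. Timp3 and Ccn5 lie highest among the genes labelled in the plot, Slc7a8, Mmp10 and Icam1 lowest, and most called genes lie close to the line at 0.

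Libraries held 17833535 to 18717286 counts with IL-1β alone, 15795985 to 20688963 with SFRP5 and 17960438 to 20107339 in control cells. A level of 3 counts in 1 library equalled 0.135 to 0.195 CPM, which is the unit used throughout and gives counts relative to library sizes corrected by TMM factors. Within a group, log2 levels of any library pair correlated across genes, which are not independent replicates, at r of 0.989 to 0.992, and an IL-1β and an SFRP5 library at r of 0.980 to 0.982. The first principal component of the 6 libraries held 48.7% of the variance and separated the groups. The 13 chondrocyte genes used to check the label were detected in all groups, from Col2a1 at a mean of 15406 CPM with IL-1β and 20767 CPM with SFRP5 down to Matn3 at 3.74 and 4.22 CPM. The gene Sfrp5 itself, which a recombinant protein does not add to the RNA, held 269 counts over the control libraries, 1 count over the IL-1β libraries and 1 over the libraries with SFRP5, too few for a fold change.

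The promoters of 4 genes are printed here because these genes fell far with SFRP5 and their promoters shared the motif that stood farthest from its share in all genes among 6 searched. Mmp10 encodes a matrix metalloproteinase, Il12b a cytokine subunit, Traf1 an adaptor of TNF receptors, and Slc7a11 the cystine transporter of the cell surface. Of the 15 named genes with the largest decreases, 11 had an entry in the RefSeq promoter table of build GRCm38.p6, which holds 250 bases before to 50 bases after a start site. In 4 of these 11 genes (36.4%) the window held TGATGNAA, the core of C/EBP-ATF type sites, on either strand, against 306 (2.79%) of the 10956 tested genes with an entry. None of the 7 genes with an entry among the 15 largest increases held it. In larger sets formed from the values the share was lower: 2 of 26 genes (7.69%) of the NRF2 list called lower held it, and 2 of 23 (8.7%) of the NF-κB and chemokine lists called lower. Each sequence is given 5′ to 3′ on the strand of its gene, with the motif in capitals, read as TGATGNAA or, on the opposite strand, as its reverse complement.
Mmp10 (chr9:7502092-7502391, plus strand): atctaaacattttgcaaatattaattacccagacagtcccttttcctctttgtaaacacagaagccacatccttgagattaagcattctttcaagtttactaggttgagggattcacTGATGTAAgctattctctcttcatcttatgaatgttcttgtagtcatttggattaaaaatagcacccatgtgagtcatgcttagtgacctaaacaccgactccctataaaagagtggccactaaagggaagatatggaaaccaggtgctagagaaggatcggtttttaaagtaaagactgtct
Il12b (chr11:44399813-44400112, plus strand): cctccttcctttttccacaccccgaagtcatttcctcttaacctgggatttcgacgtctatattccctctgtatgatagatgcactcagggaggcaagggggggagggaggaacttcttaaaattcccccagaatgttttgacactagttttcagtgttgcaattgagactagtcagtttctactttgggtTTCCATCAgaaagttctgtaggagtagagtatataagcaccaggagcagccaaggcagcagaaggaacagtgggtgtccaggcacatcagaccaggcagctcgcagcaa
Traf1 (chr2:34961723-34962022, minus strand): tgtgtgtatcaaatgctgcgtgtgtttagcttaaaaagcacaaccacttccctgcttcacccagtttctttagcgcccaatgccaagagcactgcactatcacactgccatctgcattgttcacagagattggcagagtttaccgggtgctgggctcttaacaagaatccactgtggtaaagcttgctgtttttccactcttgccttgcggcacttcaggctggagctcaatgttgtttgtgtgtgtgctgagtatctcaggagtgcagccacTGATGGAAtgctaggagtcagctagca
Slc7a11 (chr3:50443564-50443863, minus strand): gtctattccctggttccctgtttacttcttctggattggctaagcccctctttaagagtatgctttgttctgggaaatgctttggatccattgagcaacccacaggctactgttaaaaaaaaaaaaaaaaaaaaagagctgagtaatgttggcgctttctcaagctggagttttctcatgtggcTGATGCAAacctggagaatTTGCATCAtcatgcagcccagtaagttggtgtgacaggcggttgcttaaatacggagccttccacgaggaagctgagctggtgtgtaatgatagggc
The motif began 133 bases before the start site in Mmp10, 59 before it in Il12b, and 66 and 47 before it in Slc7a11, where both copies lay in 1 promoter. In Traf1 it lay after the start site, at base 24. The other 5 motifs were searched in the same windows on both strands. The TCF/LEF motif CTTTGAT, present in 3.03% of all tested genes with an entry, was in none of the 7 or the 11 genes. The antioxidant response element core TGACNNNGC was in 1 of the 7 and none of the 11, against 17.0% of all, and the AP-1 motif TGANTCA in 2 of the 7 and 2 of the 11, Mmp10 and Mmp1b, against 6.45%. CATTCC of TEAD factors was in 1 of each, against 14.7%. The loose NF-κB type motif, GGG and CC with 5 bases of any kind between them, was in 4 of the 7 and 6 of the 11 genes, against 71.9% of all. These matches are a description of the letters in the windows and of nothing bound there.

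The response to SFRP5 is given first for 5 genes chosen with earlier results of these data known. Timp3 encodes an inhibitor that blocks metalloproteinases and the aggrecan-cutting ADAMTS enzymes and stays bound to the matrix. It stood at 64.5, 68.1 and 62.7 CPM in the libraries with IL-1β alone and at 627, 599 and 608 CPM in those with SFRP5, a 9.39-fold rise (log2 fold change 3.23 ± 0.036 (SE), adjusted p = 1.21e-27, edgeR quasi-likelihood test). The groups lay far apart, and the control libraries were far above both, at 8492, 8258 and 8358 CPM. Ccn5, also known as Wisp2, encodes a matricellular protein and is a Wnt-induced gene in other cells. Its level was 1.22, 1.03 and 1.25 CPM with IL-1β and 35.01, 29.8 and 27.3 CPM with SFRP5, 26.3-fold higher (4.71 ± 0.13, adjusted p = 1.60e-19), against 244, 245 and 243 CPM in control cells. Every SFRP5 library was above every IL-1β library and below every control library for both genes.

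The other 3 of these genes, Slc7a11, Mmp10 and Icam1, were lower with SFRP5. Slc7a11, which imports cystine for glutathione synthesis, stood at 1435, 1419.5 and 1411 CPM with IL-1β and 325, 311 and 301 CPM with SFRP5, 4.55-fold lower (log2 fold change -2.19 ± 0.038 (SE), adjusted p = 2.11e-23, edgeR), while the control libraries held 28.5, 27.99 and 26.5 CPM. Mmp10, or stromelysin-2, stood at 237, 235 and 239 CPM and 32.3, 36.4 and 40.5 CPM, 6.52-fold lower (-2.71 ± 0.059, adjusted p = 3.50e-21), and was at or under the level of 3 counts in the control libraries. Its libraries with IL-1β alone were close together and all lay far above those with SFRP5. Icam1, the adhesion molecule that leukocyte integrins bind, stood at 1073, 977 and 797 CPM with IL-1β and 188, 173 and 145 CPM with SFRP5, 5.62-fold lower (-2.49 ± 0.082, adjusted p = 8.90e-18), against 24.4, 27.8 and 26.3 CPM in control cells. The third library was the lowest of its group in both groups for Icam1, and the groups did not overlap.

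**Figure D2:**
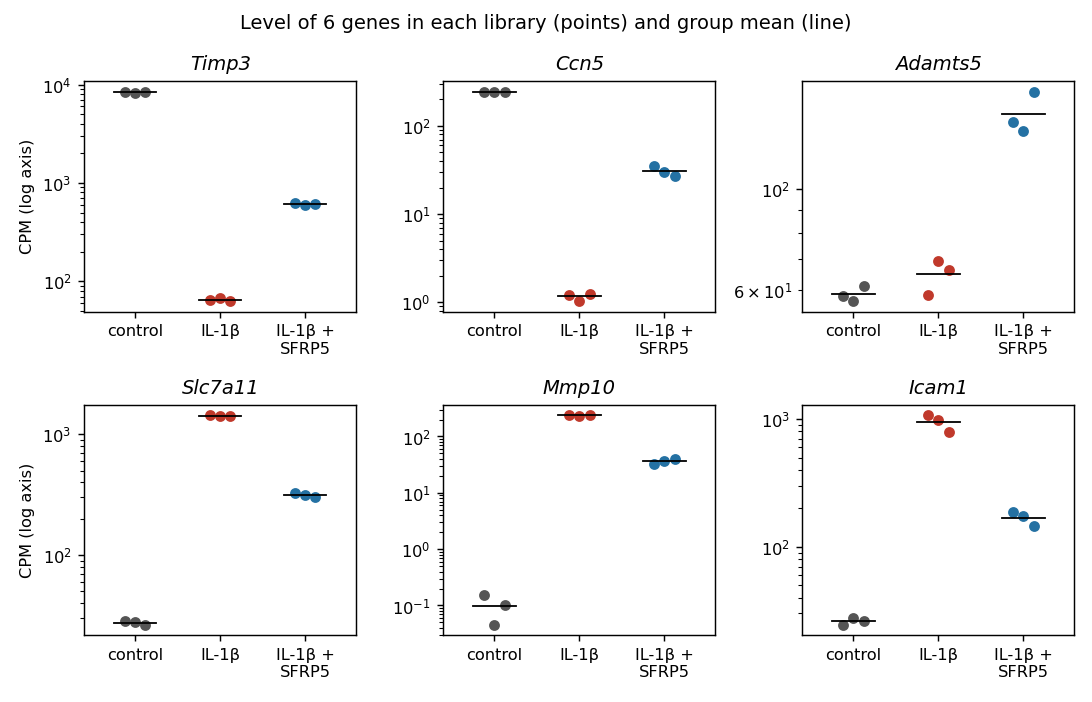
Points are single libraries and lines group means, in CPM on log axes that differ between the panels, for control cells, cells with IL-1β and cells with IL-1β and SFRP5. The libraries with SFRP5 lie between the other groups for Timp3, Ccn5, Slc7a11, Mmp10 and Icam1, and above both for Adamts5, at 134 to 164 CPM.

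The libraries of both groups did not overlap in 40.8% of all genes tested. Among called genes of at least 5 CPM in either group without overlap, the next largest rises after Ccn5 and Timp3 included several secreted products. Cxcl14, a chemokine of epithelia and fibroblasts, was at 3.22, 1.70 and 1.48 CPM with IL-1β and 16.7, 18.7 and 16.05 CPM with SFRP5 (log2 fold change 3.01 ± 0.18 (SE), adjusted p = 1.35e-12, edgeR). Pappa, a protease that cuts IGF-binding proteins and so frees insulin-like growth factors, was at 11.8, 13.2 and 15.4 CPM and 51.7, 54.1 and 56.8 CPM (2.00 ± 0.072, adjusted p = 4.27e-17). H19, an imprinted long noncoding RNA, was at 82.1, 85.6 and 63.4 CPM and 296, 314 and 260.2 CPM (1.91 ± 0.070, adjusted p = 6.47e-17), far under its mean of 5714 CPM in control cells. In each of these 3 genes every SFRP5 library exceeded every IL-1β library, which their selection required. Masp1, a protease of the lectin pathway of complement, rose by 2.38 on the log2 scale, the secreted protease Prss23 by 2.31, fibrillin-2 (Fbn2) by 1.99 and Igsf10 by 1.90. Intracellular signalling genes in the same group of 15 were Camk2b (2.22), a calcium/calmodulin kinase, Ppp1r1b (2.12), a phosphatase inhibitor, and Rcan2 (2.03), a regulator of calcineurin. The other 3 were the carbonyl reductase Cbr2 (2.00), the calcium channel gene Cacna1g (1.84) and Arl14epl (1.91), which had 0 counts in control cells.

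The 15 largest decreases included genes of amino acid transport, cytokines and metalloproteinases. Slc7a8, a transporter of large neutral amino acids, stood at 69.5, 66.6 and 58.8 CPM with IL-1β and 6.71, 7.48 and 8.32 CPM with SFRP5 (log2 fold change -3.12 ± 0.091 (SE), adjusted p = 6.94e-19, edgeR). Il36g, a cytokine of the IL-1 family, was at 7.96, 9.81 and 6.26 CPM and 0.986, 2.02 and 1.18 CPM (-2.55 ± 0.26, adjusted p = 4.29e-08), and Il12b at 17.7, 15.8 and 14.5 CPM and 3.40, 2.99 and 3.07 CPM (-2.34 ± 0.16, adjusted p = 1.83e-11). Their selection required groups that did not overlap, and the counts behind both genes are low. Trdc, named for the constant segment of the T cell receptor δ chain, had 160.3, 160.5 and 139.8 CPM with IL-1β, 34.5, 31.1 and 28.9 CPM with SFRP5 and 0 counts in control cells, while Cd3e, Cd3d, Cd4 and Cd8a, which T cells express, had 0 counts in all 6 libraries. Also among the 15 were Lilrb4a (-2.50) and Lilrb4b (-2.35), inhibitory receptors of myeloid cells, Mmp1b (-2.20), a matrix metalloproteinase, and Gsta1 (-2.38), a glutathione transferase. All belong to families of near-identical copies among which the authors' counting could divide reads. The remaining decreases among the 15 were of Mt3 (-2.38), a metallothionein, Tmc3 (-2.37) and Map7d2 (-2.18).

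Ranked by mean CPM gained or lost, abundant transcripts came first. The 6 largest gains in mean CPM were of fibronectin (Fn1, 40647 to 47545 CPM), type II collagen (Col2a1, 15406 to 20767), lipocalin-2 (Lcn2, 8459.6 to 9916), the elongation factor Eef1a1 (1893 to 3217), Col3a1 (1230.3 to 2378) and Col6a3 (2015 to 2973). The 6 largest losses were of stromelysin-1 (Mmp3, 33945 to 17338 CPM), serum amyloid A3 (Saa3, 13037 to 7156), cyclooxygenase-2 (Ptgs2, 7632 to 3252), the arginine transporter Slc7a2 (8342 to 4956), ferritin heavy chain (Fth1, 16014 to 12697) and the autophagy receptor Sqstm1 (5263 to 2382).

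SFRP5 binds Wnt ligands, and the genes of that pathway were counted by role. Among 14 tested ligands, agonists and their export genes, 6 rose and 2 fell, with a median log2 fold change of 0.32. Wnt5b, a ligand mostly of the branches without β-catenin, rose by 1.40 from 1.02 to 2.72 CPM, Rspo2, which stabilises Frizzled receptors, by 1.06, and Porcn, the enzyme that attaches the lipid of Wnt proteins, by 0.51. Both decreases, of Wnt11 and Rspo3, were lost without the second SFRP5 library, and that of Rspo3 also without the first. The rise of the ligand Wnt9a (0.97, adjusted p = 0.0392, edgeR), from 0.876 to 1.69 CPM, was lost with DESeq2 (adjusted p = 0.0668), with the replicate block (0.0647) and without any 1 of the 3 IL-1β libraries, the first or the third SFRP5 library or the second control library, with adjusted p up to 0.178. Among 21 receptors and co-receptors 11 rose and 1 fell, with a median of 0.23. Fzd8 was at 6.38, 6.18 and 5.86 CPM with IL-1β and 10.5, 10.6 and 11.4 CPM with SFRP5 (log2 fold change 0.82 ± 0.095 (SE), adjusted p = 1.62e-07, edgeR), Fzd4 rose by 0.93, Fzd2 by 0.73, and Ror1, a receptor tyrosine kinase that binds Wnt5a, by 1.09. The fall of Fzd1 (-0.16) was lost without the second SFRP5 library (adjusted p = 0.0884). In control cells Fzd2 was at a mean of 110 CPM, Fzd4 at 31.8, Fzd8 at 77.6 and Ror1 at 11.4 CPM.

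Of 9 secreted Wnt antagonists 3 rose and none fell (0 of 9). Dkk3 was at 4.19, 5.75 and 4.50 CPM with IL-1β, 14.9, 17.6 and 14.99 CPM with SFRP5 and 234, 252 and 253 CPM in control cells (log2 fold change 1.71 ± 0.11 (SE), adjusted p = 1.75e-12, edgeR). Igfbp4, a binding protein of insulin-like growth factors that also inhibits Wnt receptors, rose from 82.7 to 157 CPM (0.92). The third, Wif1, lost its call without the second or the third IL-1β library, without the second SFRP5 library and in a fit of the 6 libraries alone, with adjusted p up to 0.193.

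Counts for genes of the β-catenin branch lay near those of all genes tested. Of 29 tested core genes 6 rose and 4 fell (median log2 fold change -0.02), and without the first SFRP5 library 3 rose. Ctnnb1, which encodes β-catenin, was at 481, 473 and 474 CPM with IL-1β and 440.3, 412 and 448 CPM with SFRP5 (-0.14 ± 0.037 (SE), adjusted p = 0.00663, edgeR; 0.061 without the second SFRP5 library). Of 24 tested target genes 4 rose and 3 fell (median -0.02). Axin2, the feedback inhibitor widely used as a reporter of this branch, was at 3.77, 2.06 and 3.30 CPM and 1.28, 1.89 and 1.71 CPM (-0.92 ± 0.29, adjusted p = 0.0157), and the call was lost without the first or the third IL-1β library or the first SFRP5 library, with adjusted p up to 0.0908. Its levels were low, and the second IL-1β library lay just above the highest SFRP5 library. The other called targets were Cd44 (-1.14) and Ephb2 (-0.27) lower, and Ccn5, Ccn4 (0.54), Myc (0.41) and Ccnd1 (0.38) higher. In the planar polarity and calcium branch 9 of 29 rose and 6 fell (median 0.18), led by Camk2b, the atypical cadherin Celsr2 (1.51), Dact1 (1.19) and Nfatc4 (0.83), while Mapk9 (-0.45), Daam1 (-0.33), Cdc42 (-0.21) and Rac1 (-0.17) fell.

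Cartilage matrix genes rose more often than they fell. Of 29 tested genes of matrix and chondrocyte identity, 13 rose, 6 of them by at least 1.5-fold, and 1, Col11a2 (-0.14), fell. The median log2 fold change of the list was small, at 0.13, and without the third IL-1β library 2 fell. Col2a1 was at 14786, 15764 and 15667 CPM with IL-1β and 19852, 21085 and 21365 CPM with SFRP5 (0.43 ± 0.028 (SE), adjusted p = 5.77e-12, edgeR), all above the IL-1β libraries and far under the 74835, 73331 and 75321 CPM of control cells. Sox6, a partner of Sox9 in driving cartilage genes, was at 18.3, 18.95 and 22.8 CPM and 49.6, 45.5 and 54.2 CPM (1.31 ± 0.073, adjusted p = 2.65e-13), and Sox5 rose by 0.85. Sox9 itself was at 132, 124 and 132 CPM and 130.1, 130.03 and 130.5 CPM (0.01 ± 0.042, adjusted p = 0.892) and was not called. Hapln1, the link protein that fixes aggrecan to hyaluronan, rose from 68.01 to 121 CPM, the small leucine-rich protein Prelp from 93.2 to 185 CPM, and Snorc from 10.3 to 19.5 CPM. Aggrecan (Acan) was at 634, 643 and 594 CPM and 682, 687 and 638 CPM, in groups that overlapped (0.10 ± 0.034, adjusted p = 0.0272). The call on Acan was lost with DESeq2, in a fit of the 6 libraries alone and without the third IL-1β or the first or second SFRP5 library, with adjusted p of 0.0598 to 0.122.

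Enzymes that build the glycosaminoglycan chains of proteoglycans rose in 13 of 31 cases and fell in 4 (median log2 fold change 0.14), and without the second IL-1β library 2 fell. Csgalnact1, which starts chondroitin chains, was at 12.2, 13.4 and 11.9 CPM with IL-1β and 35.3, 29.4 and 33.6 CPM with SFRP5 (1.40 ± 0.072 (SE), adjusted p = 6.33e-14, edgeR), against 328 CPM in control cells. Chsy3, which lengthens them, rose by 1.13, and the nucleotide sugar transporter Slc35d1 by 0.86. The sulfotransferases Ust (-0.76) and Chst15 (-0.74) fell. Genes of hypertrophy and mineralization rose in 7 of 21 cases and fell in 3 (median 0.18). Pth1r, the receptor of parathyroid hormone-related protein, rose by 1.27 from 1.40 to 3.38 CPM, the channel gene Panx3 by 1.17, Mef2c by 0.71 and osteopontin (Spp1) by 0.52. Of 23 genes of fibroblast-type collagens and dedifferentiation 16 rose and none fell (0 of 23, median 0.27), led by thrombospondin-1 (Thbs1, 449.8 to 1270.5 CPM, 1.498), Col3a1 (0.95), Thbs2 (0.80) and Col12a1 (0.69). Matrix genes of cartilage and of fibrous tissue thus both had more members higher than lower.

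Matrix metalloproteinases fell in 7 of 15 cases and rose in 3, with a median log2 fold change of -0.26; without the third IL-1β or the second SFRP5 library 1 rose, Mmp19 (1.08). Mmp3, the most abundant of them, was at 33212, 33934 and 34687 CPM with IL-1β and 17262, 17396 and 17356 CPM with SFRP5 (-0.97 ± 0.033 (SE), adjusted p = 1.23e-17, edgeR), against a mean of 1.83 CPM in control cells. Mmp13, the main collagenase of cartilage breakdown, was at 4183, 4152 and 4022 CPM and 3123, 3136 and 3086 CPM (-0.40 ± 0.036, adjusted p = 1.57e-09), a difference much smaller than that of Mmp10 although the groups did not overlap. Mmp12 fell by 1.22 on the log2 scale and Mmp9, a gelatinase, by 0.86.

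The aggrecanases went opposite ways. Adamts5, the main aggrecan-cutting enzyme of mouse cartilage, was at 58.6, 69.5 and 66.4 CPM with IL-1β, 140.2, 134 and 164 CPM with SFRP5 and 58.2, 56.6 and 61.1 CPM in control cells (log2 fold change 1.17 ± 0.065 (SE), adjusted p = 2.72e-13, edgeR). All 3 SFRP5 libraries were above the other 6. Adamts4 was at 6.38, 4.66 and 5.01 CPM with IL-1β and 2.66, 2.28 and 1.95 CPM with SFRP5 (-1.21 ± 0.19, adjusted p = 2.28e-05), at a much lower level. Adamts1 rose by 0.68, Adamts3, which trims procollagen, by 1.75, and the lysosomal protease Ctsl by 0.51. The plasminogen activators fell, Plat from 90.5 to 32.7 CPM (-1.47) and Plau from 100.1 to 39.8 CPM (-1.33), as did the bone-resorbing protease Ctsk (-0.32). Altogether 9 of 32 ADAMTS and other matrix-degrading proteases rose and 8 fell (median 0.16), and without the third IL-1β library 5 fell.

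Of 19 tested protease inhibitors 10 rose and 3 fell, with a median log2 fold change of 0.11. Beside Timp3, Reck, a membrane-bound inhibitor of metalloproteinases, rose from 28.2 to 48.2 CPM (0.77) and the collagen chaperone Serpinh1 by 0.58. Timp1 rose by 0.29 and Timp2 by 0.24, much less than Timp3. Serpinb2, an inhibitor of plasminogen activators, was at 64.1, 59.5 and 59.5 CPM with IL-1β and 17.9, 19.6 and 15.2 CPM with SFRP5 (-1.80 ± 0.081 (SE), adjusted p = 2.85e-14, edgeR) and had 0 counts in control cells. Slpi (-0.88) and Spint2 (-0.64) fell too.

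**Figure D3:**
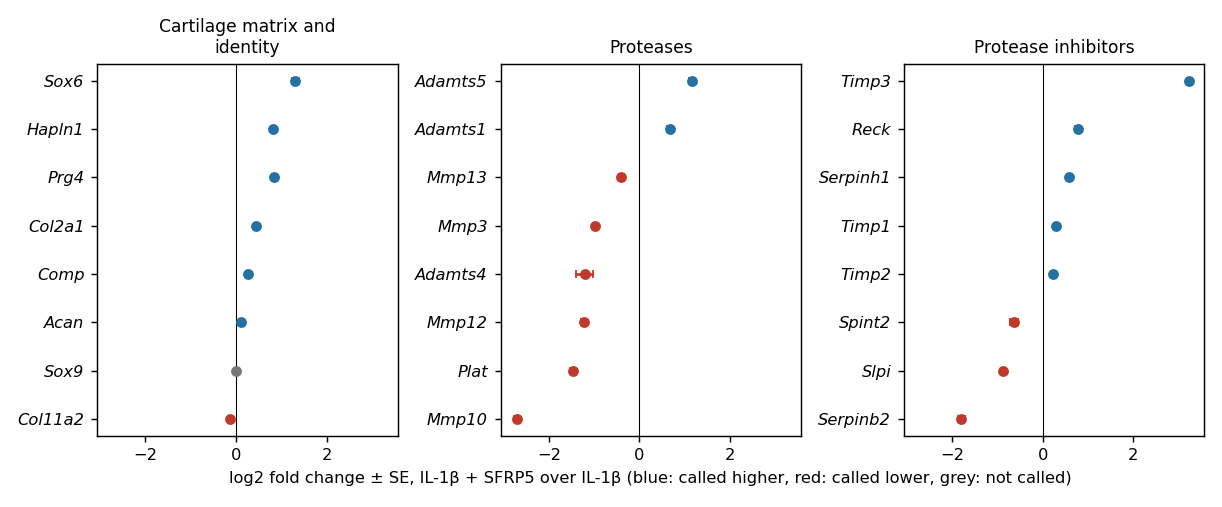
Log2 fold change, IL-1β with SFRP5 over IL-1β alone, with its SE as bars, which are mostly smaller than the points, for 8 genes each of cartilage matrix, proteases and protease inhibitors. Blue marks genes called higher, red called lower and grey not called; Timp3 at 3.23 and Mmp10 at -2.71 lie farthest from 0, Adamts5 and Adamts4 lie on opposite sides, and Sox9 lies at 0.

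Of 31 tested genes of the IL-1 receptor and Toll-like receptor pathways 6 rose (19.4%) and 9 fell (29%). Their median log2 fold change was -0.11. The shares of all genes tested were 15.6% and 15.7%, so the share that rose was near that of all genes. The signalling receptor Il1r1 was at 34.1, 30.3 and 31.4 CPM with IL-1β and 49.5, 47.6 and 47.2 CPM with SFRP5 (0.59 ± 0.057 (SE), adjusted p = 8.36e-09, edgeR). Its partner Il1rap (0.54), the adaptor Myd88 (0.52) and the kinase gene Irak2 (0.51) rose as well. The ligands Il36g and Il36a (-2.53), the receptor antagonist Il1rn (-0.61) and the co-receptor Cd14 (-0.56) fell.

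NF-κB subunits and the genes of their feedback mostly fell, 19 of 30 against 4 that rose, with a median log2 fold change of -0.29. Tnfaip3, which encodes the deubiquitinase A20, was at 351, 331 and 318 CPM with IL-1β and 125, 118 and 113 CPM with SFRP5 (-1.49 ± 0.048 (SE), adjusted p = 5.64e-18, edgeR). Nfkbia, the inhibitor IκBα, was at 658, 655 and 661 CPM and 346, 358 and 354 CPM (-0.90 ± 0.043, adjusted p = 1.59e-14). Traf1 fell from 32.1 to 7.02 CPM, the ubiquitin ligase Birc3 from 199 to 62.4 CPM (-1.67) and Nfkb2 from 119 to 60.5 CPM (-0.98), while the subunit Rela changed by only -0.25. The 4 that rose were the nuclear IκB proteins Bcl3 (0.82) and Nfkbiz (0.58), and Traf2 (0.31) and N4bp1 (0.26). In control cells Tnfaip3 was at 1.62 CPM and Nfkbia at 7.27 CPM.

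Chemokines fell in 10 of 19 cases and rose in 2, with a median log2 fold change of -0.79. Cxcl2, a neutrophil attractant, was at 1492, 1358 and 1346 CPM with IL-1β and 369, 362 and 335 CPM with SFRP5 (-1.98 ± 0.048 (SE), adjusted p = 2.05e-20, edgeR), and Ccl5, which attracts T cells and monocytes, at 1377, 1185 and 1308 CPM and 356, 354 and 279 CPM (-1.97 ± 0.066, adjusted p = 1.23e-17). Cxcl3 fell from 372 to 89.9 CPM, Ccl2 from 762 to 353, Cxcl1 from 3690.4 to 1895 and Cxcl5 from 2549.6 to 1475 CPM. All of these remained far above control cells, where each had a mean under 3 CPM. The 2 that rose were Cxcl14 and Cxcl12 (from 16.9 to 24.3 CPM), with means of 10.8 and 116 CPM in control cells.

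Cytokines and their receptors rose in 10 of 34 cases (29.4%) and fell in 12 (35.3%), with a median log2 fold change of -0.03. Of all genes tested 15.6% rose and 15.7% fell. Csf3 was at 32.5, 28.8 and 24.4 CPM with IL-1β and 9.22, 8.59 and 6.08 CPM with SFRP5 (-1.83 ± 0.13 (SE), adjusted p = 1.33e-10, edgeR), Csf2 fell from 5.29 to 1.31 CPM, Lif from 387 to 193 CPM and Il19 from 19.96 to 9.90 CPM. Il6 was at 281, 257 and 255 CPM and 169, 159 and 159.6 CPM (-0.70 ± 0.048, adjusted p = 1.35e-11), a clear but smaller fall. Among the increases were the decoy receptor Il13ra2 (0.50), the receptors Tnfrsf1a (0.40) and Il17ra (0.37), and Tnfsf11 (0.90, adjusted p = 0.0183, edgeR), the ligand RANKL of osteoclast formation. The call of Tnfsf11 was lost without the second or the third IL-1β library or the first SFRP5 library, with adjusted p up to 0.203.

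In the prostaglandin and nitric oxide pathway 10 of 25 fell and 5 rose (median log2 fold change -0.14). Ptgs2 was at 7819.6, 7609 and 7467 CPM with IL-1β and 3250.1, 3251 and 3254 CPM with SFRP5 (-1.23 ± 0.034 (SE), adjusted p = 2.16e-19, edgeR), all under the IL-1β libraries. Nos2, the inducible nitric oxide synthase, was at 2585, 2543 and 2389 CPM and 2584, 2591 and 2634 CPM (0.06 ± 0.033, adjusted p = 0.223) and was not called. Genes that handle its substrate arginine fell, the transporter Slc7a2 (-0.75), Ass1 (-0.98), which rebuilds arginine from citrulline, and the arginase Arg2 (-1.55). Ptges2 (0.91), the prostacyclin synthase Ptgis (1.00) and the receptor Ptgfr (1.31) rose.

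Acute phase and complement genes rose in 9 of 25 cases and fell in 3 (median log2 fold change 0.07). Lcn2 rose by 0.23, haptoglobin (Hp) by 0.55 and the pentraxin Ptx3 from 373 to 827 CPM (1.15), while Saa3 (-0.87), complement factor B (Cfb, -0.75) and C3 (-0.56) fell. Among 30 adhesion molecules 12 rose and 11 fell: beside Icam1, the hyaluronan receptor Cd44 fell from 1626 to 738 CPM and the collagen-binding integrin Itga2 by 1.44 on the log2 scale, while Itga11, a collagen-binding integrin of fibroblasts, rose by 1.45, L1cam by 1.45 and Ncam1 by 0.76. Interferon-stimulated genes fell in 12 of 36 cases and rose in none (0 of 36, median -0.38), with Irf1 at 74.1, 67.3 and 63.1 CPM with IL-1β and 28.01, 26.9 and 23.9 CPM with SFRP5 (-1.37 ± 0.072 (SE), adjusted p = 6.85e-14, edgeR) and Gbp2 falling from 74.3 to 29.5 CPM. Genes of MHC class I and antigen presentation fell in 8 of 20 cases and rose in none (0 of 20, median -0.19), among them H2-Q4 (-0.42) and Erap1 (-0.29). Reads of the H2-Q genes can be divided among near-identical copies.

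Of 16 macrophage markers 5 could be tested, of which 2 fell and 3 were not called, with a median log2 fold change of -0.155. Their summed level over 16 markers was 29.8 to 31.4 CPM for IL-1β alone, 20.5 to 25.4 CPM after SFRP5 was added and 16.8 to 18.3 CPM for control cells; Mrc1 (-1.02) and Csf1r (-1.31) fell, and Cd163 had 0 counts in the 6 libraries. The part of these cells in the changes of immune genes was not tested, and fewer cells of a type and less RNA per cell cannot be told apart in such cultures. Summed markers of neutrophils were 6.8 to 8.65 CPM with IL-1β and 5.62 to 8.65 with SFRP5, with 6 of 12 markers at 0 counts, S100a9, Ly6g, Mpo, Elane, Csf3r and Ngp. Markers of lymphocytes and red cells summed to at most 0.13 CPM in the 6 libraries, with 11 of 15 at 0 counts.

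**Figure D4:**
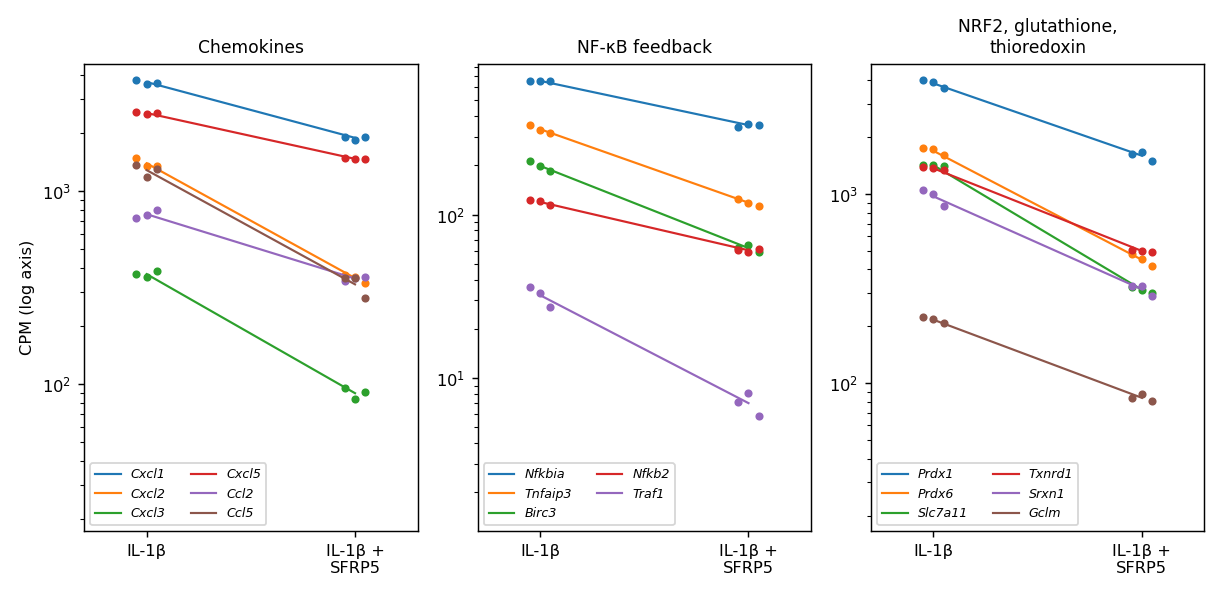
Points are single libraries of the groups with IL-1β and with IL-1β and SFRP5, in CPM on log axes that differ between the panels, and lines join the group means of 6 chemokines, 5 genes of NF-κB feedback and 6 genes of the NRF2, glutathione and thioredoxin list. The 17 genes were picked among members called lower, some after their values were seen, and members called higher are not shown. In all 17 genes every SFRP5 library lies below every IL-1β library, and the fall is steepest for Traf1, Slc7a11 and Cxcl3.

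Most genes of the NRF2, glutathione and thioredoxin list fell. NRF2, the product of Nfe2l2, is the transcription factor that raises many of them under oxidative stress, and the list of its targets and of related enzymes had 31 of 52 members lower and 3 higher, with a median log2 fold change of -0.27. Of the 31, 19 fell by at least 1.5-fold. Prdx6, a peroxidase, was at 1747, 1726 and 1609.8 CPM with IL-1β and 481, 453 and 417 CPM with SFRP5 (-1.91 ± 0.045 (SE), adjusted p = 1.04e-20, edgeR), against 57.6, 57.7 and 60.5 CPM in control cells. Srxn1, which repairs overoxidised peroxiredoxins, was at 1048, 1004 and 869 CPM and 327, 329 and 288 CPM (-1.63 ± 0.055, adjusted p = 1.24e-17), and the thioredoxin reductase Txnrd1 at 1395, 1379 and 1336 CPM and 508, 503 and 492 CPM (-1.45 ± 0.034, adjusted p = 1.09e-20). The groups lay apart in all 3 genes. Gclm, a subunit of the enzyme that starts glutathione synthesis, fell from 217 to 83.9 CPM, Prdx1 from 3851 to 1598 and Nqo1 from 243 to 148 CPM, and Slc3a2, the partner chain of Slc7a11 and Slc7a8, from 1034 to 651 CPM. The transcript of Nfe2l2 itself changed less (-0.24). Txnip (0.98), an inhibitor of thioredoxin, Gpx3 (0.68) and Prdx4 (0.21) rose. Of the 31 genes that fell 26 had a promoter entry, and 9 of these (34.6%) held TGACNNNGC, against 17.0% of all tested genes with an entry. This set was formed from the values themselves and within a list of NRF2 targets and related enzymes. Members of the list that did not fall were not counted, so the share cannot be tied to the fall.

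Proteasome and heat shock genes mostly fell too, and other stress lists were split. Of 34 proteasome subunits and assembly factors 22 fell and 1 rose, with a median log2 fold change of -0.17, led by Psmd11 (from 164 to 107 CPM, -0.62), Psmd14 (-0.51), Psma6 (-0.50) and Psmd1 (-0.47); the rise of Psmg1 was lost without the second IL-1β or the second SFRP5 library. Cytosolic heat shock genes fell in 13 of 21 cases and rose in 1, Bag3, which was lost without the second SFRP5 library (median -0.22). Hsp90aa1 was at 1625, 1610.4 and 1570.5 CPM with IL-1β and 1086, 1056 and 992 CPM with SFRP5 (-0.62 ± 0.035 (SE), adjusted p = 4.04e-13, edgeR), and Cryab fell from 29.3 to 19.9 CPM. Hspa1a was at 306, 229.9 and 138 CPM and 167, 154 and 53.99 CPM, in groups that overlapped and with the third library lowest in each; its call and that of its near-identical copy Hspa1b were lost with DESeq2, with robust dispersions and without the first IL-1β library, with adjusted p up to 0.286. In the list of ATF4, amino acid and one-carbon genes 8 of 44 rose (18.2%) and 15 fell (34.1%), with a median of -0.004. The shares of all genes tested were 15.6% and 15.7%. Apart from Slc7a11, Slc3a2 and Chac1, which the NRF2 list also holds, the largest fall was of the glutamine transporter Slc1a5 (-0.44). Slc38a1 rose by 0.45. Endoplasmic reticulum chaperones and unfolded protein genes were split, 8 of 33 higher and 9 lower (median 0.02), with Creb3l1, a factor for collagen secretion, at 0.93 and Hspa5 at -0.29. Glycolysis and hypoxia genes fell in 17 of 39 cases and rose in 10 (median -0.07), with Ndrg1 falling from 2220.4 to 1358 CPM and the monocarboxylate transporter Slc16a1 rising from 421 to 704 CPM. The list of cholesterol synthesis, uptake and efflux had 5 of 42 members higher and 7 lower (median 0.03), close to the shares of all genes tested.

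Immediate early and related transcription factors fell in 13 of 36 cases and rose in 9 (median log2 fold change 0.01). Jun (-0.63), Junb (-0.63) and Klf10 (-1.05) fell. Cebpd, a C/EBP factor of acute responses, was at 81.6, 85.4 and 75.7 CPM with IL-1β and 193, 193 and 198 CPM with SFRP5 (1.27 ± 0.051 (SE), adjusted p = 4.67e-16, edgeR), above the 9.85, 10.2 and 11.8 CPM of control cells, and Maf (0.92) and Nr4a2 (0.83) rose. Among feedback regulators of MAP kinases and G proteins 11 of 26 fell and 5 rose (median -0.05), 3 without the third IL-1β library. Dusp5 (-1.28), Dusp9 (-1.12) and Rgs16 (-1.16) fell, whereas Rgs2, which dampens Gq signalling, rose from 0.646 to 2.97 CPM and Dusp6, a phosphatase of ERK, from 10.96 to 18.1 CPM. Of the YAP targets and CCN genes 10 of 27 rose and 6 fell (median 0.09), with Amotl2 (1.00) higher beside Ccn5 and tissue factor (F3, -1.02) and Fjx1 (-1.83) lower. Contractile genes rose in 7 of 26 cases (26.9%) and fell in 6 (23.1%), Tpm1 (-0.70) the most. Their median was 0.12, and the shares of all genes tested were 15.6% and 15.7%.

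Growth factor genes were called more often than all genes tested in both directions, and more often higher than lower. Higher and lower shares were 38.2% and 21.8% for the TGF-β and BMP list and 44.7% and 19.1% for the FGF, IGF and EGF list. All genes tested had 15.6% and 15.7%. Of 55 genes of the TGF-β and BMP pathway 21 rose and 12 fell (median log2 fold change 0.11). Follistatin (Fst), which binds activins, was at 9.96, 9.69 and 9.05 CPM with IL-1β and 27.8, 26.3 and 24.1 CPM with SFRP5 (1.45 ± 0.086 (SE), adjusted p = 7.75e-13, edgeR); Smad9 (1.19) and the joint-forming ligand Gdf6 (1.46) rose, and Id2 fell from 149 to 74.5 CPM. In the FGF, IGF and EGF families 21 of 47 rose and 9 fell (median 0.14), and without the third IL-1β library 5 fell. Beside Pappa, Vegfd (1.60), Fgf2 (1.37) and the receptor Pdgfra (0.87) rose, and the EGF receptor ligand Areg (-1.19) fell. The Notch and Hedgehog list had 9 of 21 higher and 2 lower (median 0.21), 1 lower with upper-quartile factors or without the first or second IL-1β or the second SFRP5 library. Its largest rises were of Hedgehog genes: the co-receptors Gas1 (at 6.56, 5.81 and 4.84 CPM with IL-1β and 18.98, 18.5 and 16.9 CPM with SFRP5, 1.66 ± 0.093 (SE), adjusted p = 2.65e-13, edgeR) and Cdon (from 57.6 to 138 CPM), and the factors Gli2 (1.23) and Gli3 (0.61). All 4 were lower with IL-1β than in control cells. That comparison shares the IL-1β libraries and called 40.4% of all genes tested lower. Among retinoid, clock and nuclear receptor genes 11 of 33 rose and 2 fell (median 0.09), with Aldh1a1, which makes retinoic acid, at 1.02, Per3 at 0.80 and the clock repressor Bhlhe40 at -0.62.

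Cell division genes rose from very low levels. Of 38 tested genes of mitosis and the spindle 27 rose, 25 of them by at least 1.5-fold, and none fell (0 of 38), with a median log2 fold change of 0.76. Mki67, the proliferation marker Ki-67, was at 8.20, 5.81 and 5.58 CPM with IL-1β and 16.1, 16.7 and 13.2 CPM with SFRP5 (1.23 ± 0.11 (SE), adjusted p = 3.46e-09, edgeR), against 147, 153 and 144 CPM in control cells. Cdc20, which activates the anaphase-promoting complex, was at 2.00, 1.82 and 1.42 CPM and 5.13, 4.94 and 4.48 CPM (1.48 ± 0.16, adjusted p = 7.44e-08), and Ccnb1, cyclin B1, at 0.668, 0.484 and 0.569 CPM and 1.23, 1.82 and 1.89 CPM (1.49 ± 0.28, adjusted p = 1.94e-04). The SFRP5 libraries of these genes were all above the IL-1β libraries and all far under control libraries. Of 41 genes of DNA replication and nucleotide supply 12 rose and none fell (0 of 41, median 0.24), led by Rrm2, which makes deoxynucleotides, from 4.71 to 11.9 CPM. Genes of p53 and apoptosis were split, 11 of 37 higher and 10 lower (median 0.06), with the pro-apoptotic Bid (-0.92) and Gadd45g (-0.81) lower. Of 48 cytosolic ribosomal protein genes 19 rose and 2 fell (median 0.11), 4 without the third IL-1β library; Rps23 rose by 0.34, and Rpl3 fell by 0.42 on the log2 scale. Lysosomal and autophagy genes rose in 11 of 44 cases and fell in 13 (median 0.03), with the regulator Tfeb higher at 1.59 and Sqstm1 lower at -1.14.

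**Figure D5:**
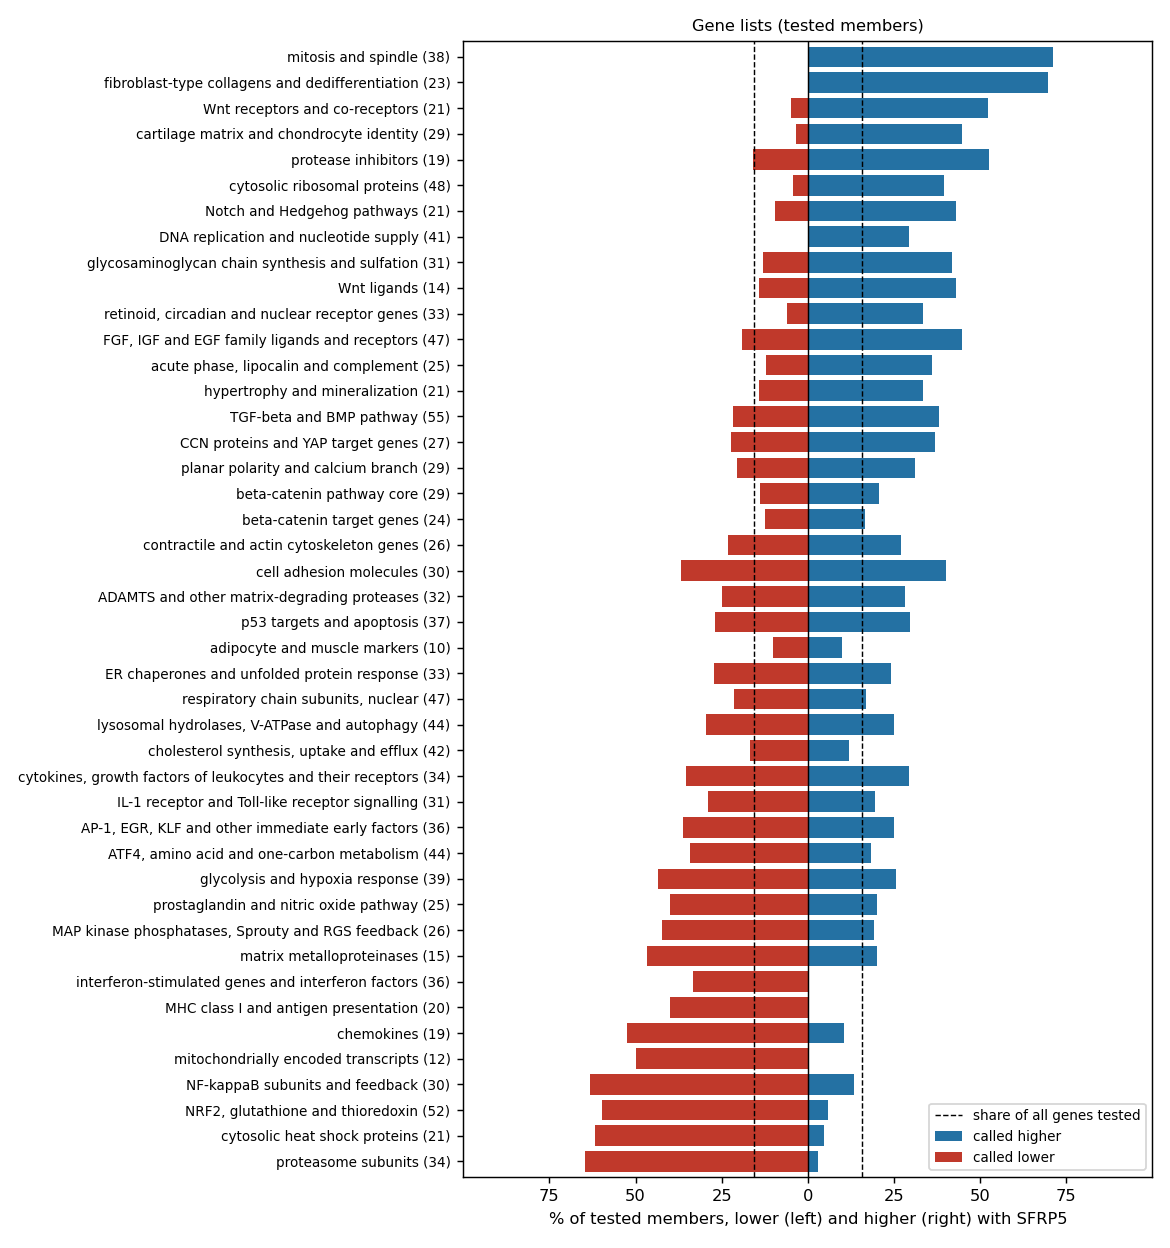
Bars give the percentage of tested members of each gene list called higher (blue, right) or lower (red, left) with SFRP5, for lists with at least 10 tested members, whose number stands in parentheses; dashed lines mark the shares of all genes tested, 15.6% and 15.7%. Mitosis and fibroblast-type collagens lie at the top with no member lower, and proteasome, heat shock, NRF2 and NF-κB lists at the bottom.

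Markers of the other cells that such cultures can hold also differed between the groups. Summed markers of endothelium and mural cells were 181 to 199 CPM with IL-1β, 336 to 349 with SFRP5 and 663 to 680 in control libraries, and nearly all of this was Cspg4 (163, 313 and 656 CPM), which chondrocytes also express, while Tie1 and Emcn had 0 counts in the 6 libraries. Osteoblast markers summed to 1840 to 1950 CPM with IL-1β and 2290 to 2490 with SFRP5, mostly Col1a1, with Dmp1 and Sost at 0 counts. Synovial fibroblast markers summed to 848 to 902 and 1080 to 1120 CPM, against 134 to 139 in control libraries. In the 6 libraries most of that sum was Prg4, the lubricin of the cartilage surface and synovium, which rose from 475 to 845 CPM (0.83), while Pdpn fell from 384 to 231 CPM (-0.73). Osteoclast markers summed to 123 to 141 CPM with IL-1β and 105 to 119 with SFRP5. Whether a shift in the share of these cells has a part in the rise of the fibroblast-type collagens was not tested.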

How the data were processed

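RNA of cultured knee chondrocytes was sequenced from 9 libraries, 3 per group. Per the labels' protocols, a directional kit was used, fastp trimmed the read pairs, STAR mapped them to mm10 and RSEM quantified them; their versions, the annotation release and the strand setting are not stated. The authors deposited 1 table of gene counts, whole numbers with no scaling between libraries; the rounding of RSEM's estimates is not stated, and the table's build is uncertain. Although the labels give mm10, the gene start in the table lay within 1000 bases of a RefSeq GRCm38.p6 start for only 532 of 20870 genes matched by symbol (2.55%), so the table's annotation is uncertain too and none of its positions is printed.

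Genes kept by edgeR's filterByExpr by group (15502 of 56748, of which 29182 had no count) were tested with edgeR 4.0.16 (R 4.3.3): TMM factors, 1 quasi-likelihood fit over all 9 libraries with 1 mean per group and 6 residual degrees of freedom, and Benjamini-Hochberg adjustment over all genes tested. Every adjusted p comes from this test unless another is named. The SE was derived from the log2 fold change and its F statistic. The common biological coefficient of variation was 4.97%. The test was checked on simulated data.

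The genes named were the 5 marker genes and Sfrp5, the 15 largest log2 fold changes in each direction (called, at least 5 CPM, no overlap, no predicted-gene symbol), the 6 largest gains and losses in CPM, up to 4 called members of each list and direction, and 12 cartilage, Wnt and inflammation genes; the genes outside this rule (Prdx1, Srxn1, Txnrd1, Gclm, Nqo1, Nfe2l2, Cxcl1, Cxcl5, Ccl2, Nfkbia, Rela, Hapln1, Comp, Timp1, Timp2, Lif, Fgf2, Pdgfra) were added after their values were seen, and so were the promoter counts of the NRF2 genes. The marker genes and the gene lists were chosen with earlier results of these data known, so the lists are described by counts and medians and were not tested. Alternatives were RLE and upper-quartile factors, other filters, DESeq2 1.42.0, robust dispersions, the 6 libraries alone, a replicate block and leaving out each library. Promoters are from RefSeq, build GRCm38.p6.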

Additional observations from a re-analysis of the deposited data

How the results depend on the processing

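The counts of genes called stayed within 1.5 times of 2420 higher and 2438 lower under every alternative run. They were 2323 and 2539 with RLE factors, 2575 and 2247 with upper-quartile factors, 2341 and 2370 with no filter, 2400 and 2464 with at least 1 CPM in 3 libraries, 2039 and 2256 with DESeq2, 2444 and 2454 with robust dispersions, and 2176 and 2333 with only the 6 libraries compared. Leaving out each of the 9 libraries in turn gave 2045 to 2333 genes higher and 2029 to 2399 lower, and 692 to 739 and 572 to 632 at 1.5-fold. Every gene called both in the main fit and under an alternative had the same direction in both. Of 358 genes followed by name 355 were called, as most had been chosen among called genes. In every alternative that tested them, 304 kept both their direction and their side of the threshold.

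Same-numbered libraries of the groups compared did not deviate together (correlations of 0.0194, -0.00959 and 0.0402 across genes), so the numbers do not pair the libraries; a replicate block gave 2389 genes higher and 2391 lower. Leaving out single libraries moved the log2 fold change of Sox9 between -0.0177 and 0.0251, with the sign turned without IL-1β replicate 2, and that of Sfrp5, which rests on 1 count a group, between -1.99 and 1.94. Levels under about 0.2 CPM rest on 3 counts or fewer a library.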
